A study of Mus musculus with 9 samples.

Results

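The 10 genes described here control the step from the G1 phase of the cell cycle, the growth phase before DNA copying, into S phase. They are 3 cyclin-dependent kinases (Cdk2, Cdk4 and Cdk6), 4 kinase inhibitors (Cdkn1b, Cdkn1c, Cdkn2c and Cdkn2d), the retinoblastoma gene Rb1 and 2 E2F transcription factors (E2f2 and E2f4). They were chosen by symbol, and all 10 were found once each among the 17769 genes of the deposited count table. RNA came from mouse bone marrow cells sorted as MEP (in common use, megakaryocyte-erythroid progenitors), with 9 libraries in 3 groups of 3. The group VF carried SclCre and the Jak2 mutation V617F, the group E12 carried SclCre and a Jak2 mutation in exon 12, and the group WT is labelled only as wild type, all on a C57BL/6N background. All groups received 5 daily tamoxifen injections per the labels, and cells were taken 12 weeks later in VF and WT and 6 weeks later in E12, so that time and genotype cannot be told apart for E12. SclCre is named for Scl, another name of Tal1, a transcription factor gene of blood stem cells and of the erythroid and megakaryocyte lineages whose regulatory DNA drives Cre in such strains. The labels do not give the age of the mice, whether WT mice carried Cre or whether the sort separated mutant from unmutated cells. Nor do they tie each replicate to a mouse of its own, so the p-values rest on a spread between libraries that may be technical.

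In G1, D-type cyclins activate Cdk4 and Cdk6, and E-type cyclins activate Cdk2. These kinases phosphorylate the retinoblastoma protein and its relatives, which then release E2F factors, and free activator E2Fs turn on genes for DNA synthesis. The INK4 inhibitors, which include p18 (Cdkn2c) and p19 (Cdkn2d), bind Cdk4 and Cdk6 only, whereas the CIP/KIP inhibitors p27 (Cdkn1b) and p57 (Cdkn1c) act on several cyclin-kinase pairs and are best known for blocking Cdk2. E2f2 belongs to the activators, while E2f4 mostly represses genes together with the pocket proteins in resting and early G1 cells. In the red cell lineage, both Rb1 and E2f4 are known to be needed for normal maturation, and Cdk6 is prominent in blood stem and progenitor cells.

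The WT libraries stood apart from the mutant ones. Total counts ranged from 33838681 to 39736096 in WT, from 19256431 to 21331168 in VF and from 20328414 to 23499914 in E12. Nevertheless, genes without a count made up 27.2% to 30.1% of the table in WT, while VF had 10.7% to 12.4% and E12 had 12.4% to 18.7%. WT 50 was the most extreme. Genes under 1 kb took 27.9% of its counts, against 14.1% and 11.2% in WT 51 and WT 52 and 6.92% to 8.97% in VF and E12. Facility numbers of WT come from another range than those of both mutants, so that a difference in library preparation cannot be told apart from genotype. Among all genes tested, the median log2 fold change of VF against WT was -1.77 for genes under 1 kb and 1.22 for genes over 5 kb, and the corresponding values of E12 against WT were -1.84 and 1.11. Comparisons with WT are therefore also given with offsets that remove, in each library, a smooth trend of the level with gene length. These offsets also moved the median of all genes, from 0.36 in both comparisons to -0.54 in VF and -0.4 in E12. Without the offsets, E12 against VF had medians of -0.03 and -0.16 for the same length classes. Summed erythroid markers ran from 22900 to 40100 CPM (counts scaled to a common library size) in WT, 1160 to 1770 in VF and 8550 to 23100 in E12, over 10 markers of which 0 lacked counts in any group. The 10 megakaryocyte markers summed to 57 to 176 CPM in WT, where Itgb3 and Gp6 had no count, 2040 to 2630 in VF and 391 to 474 in E12. The 9 stem and progenitor markers summed to 96 to 212 CPM in WT, where Mecom, Procr and Tek had no count, 1930 to 1940 in VF and 580 to 898 in E12. Markers of other lineages moved with the groups too. The 8 neutrophil and granulocyte-monocyte markers summed to 6890 to 12800 CPM in VF, 1550 to 2220 in E12 and 257 to 4310 in WT. In the same order, the 5 monocyte and macrophage markers summed to 145 to 210, 86.2 to 161 and 8.33 to 61.4. The 5 mast cell and basophil markers summed to 294 to 357, 33.3 to 170 and 25.7 to 121. The 7 B cell markers summed to 134 to 267 CPM in VF, 29.4 to 658 in E12 and 376 to 4680 in WT, and the 6 measured T and NK cell markers to 497 to 582, 130 to 243 and 130 to 1160, with both highest values in WT 50. None of these 5 lists had a marker without counts in a group. The part of these differences in lineage markers in the results below was not tested.

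Of the 10 genes, 7 had at least 1 promoter window from RefSeq on the build GRCm38.p6, which runs from 250 bases before to 50 bases after a transcription start. Rb1, Cdkn1c and E2f4 were not among them. The windows below are shown for Cdk4, the one kinase called against WT in the edgeR fit described below, and for the genes whose windows hold E2F letters. In the Cdk4 window (chr10:127063285-127063584, plus strand) the capitals mark CACGTG, the E-box that Myc and related factors are known to bind. In the E2f2 window (chr4:136172024-136172323, plus strand) and the Cdk2 window (chr10:128705002-128705301, minus strand) the capitals mark an E2F match, searched as TTTGGCGC, TTTCCCGC, TTTCGCGC or TTTGCCGC on both strands.
Cdk4: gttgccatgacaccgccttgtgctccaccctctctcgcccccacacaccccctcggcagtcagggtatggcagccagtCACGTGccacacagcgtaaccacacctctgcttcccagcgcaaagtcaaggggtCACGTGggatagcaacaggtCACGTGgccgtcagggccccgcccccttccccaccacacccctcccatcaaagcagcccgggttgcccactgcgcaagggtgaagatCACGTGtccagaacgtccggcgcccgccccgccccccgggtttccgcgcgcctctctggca
E2f2: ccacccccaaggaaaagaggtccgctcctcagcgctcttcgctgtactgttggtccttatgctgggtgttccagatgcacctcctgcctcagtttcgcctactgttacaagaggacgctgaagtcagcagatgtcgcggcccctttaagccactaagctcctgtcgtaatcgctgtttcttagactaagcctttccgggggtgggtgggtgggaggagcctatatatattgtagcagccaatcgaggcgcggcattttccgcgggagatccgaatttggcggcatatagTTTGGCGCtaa
Cdk2: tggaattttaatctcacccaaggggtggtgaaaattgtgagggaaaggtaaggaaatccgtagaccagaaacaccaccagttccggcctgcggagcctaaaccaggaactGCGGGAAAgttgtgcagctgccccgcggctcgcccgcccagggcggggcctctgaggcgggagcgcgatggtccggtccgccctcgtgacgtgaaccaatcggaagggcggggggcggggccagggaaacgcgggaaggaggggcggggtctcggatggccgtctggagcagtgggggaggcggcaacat
The Cdk4 window held 4 E-boxes, whose first bases lie at positions -172, -118, -98 and -11 from the start. At least 1 E-box was present in 7.15% of 32851 windows, and at least 4 in 8 windows, or 0.0244%. The Cdk6 window held 1, at position -220, and 1 of the Cdkn2c windows held 1, at position 35. E2F letters were present in 2.26% of all windows and in 2 of 9 windows of these genes, in E2f2 at position 40 after the start and in Cdk2 at position -140, on the opposite strand. The mark of 4 E-boxes was set from the Cdk4 window itself, so its rarity among windows is no test. Letters for GATA, CCAAT and SP1 were also searched and are not given here. A match of letters is a description and does not show binding.

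Levels were compared between genes only per length, as RPKM, the CPM divided by gene length in kilobases, with the gene lengths the authors gave. The genes are described here as an abundant and a scarce set, whose ranges nearly touched, as the plot of levels per kilobase shows. The lowest value among Cdk4, Cdk6, Cdk2, Cdkn2d and E2f4 was 12.4 RPKM (Cdk2 in WT), and the highest among the other 5 was 12 RPKM (Rb1 in E12). Cdk4 was the most abundant in all 9 libraries, at 424 ± 15.6 RPKM in VF, 537 ± 44.1 in E12 and 1040 ± 191 in WT (mean ± SD, n = 3 here and below). Cdk6 was at 103 ± 4.19 RPKM in VF, 67.9 ± 11.6 in E12 and 83.8 ± 26.5 in WT. Cdk2 was at 84.7 ± 6.7, 73.5 ± 6.89 and 64.1 ± 50.3 RPKM, and Cdkn2d at 74.2 ± 2.05, 31.5 ± 4.56 and 87.1 ± 70.1. E2f4 was at 25.9 ± 2.42, 81.1 ± 15 and 66.8 ± 18.8 RPKM. In E12 the ranges of Cdk6, Cdk2 and E2f4 overlapped, and in WT those of Cdk6, Cdk2, Cdkn2d and E2f4 did, so that no order can be read among them there. The other inhibitors, Rb1 and E2f2 had lower group means, from 0.139 RPKM for Cdkn1c in E12 to 8.79 RPKM for Rb1 in E12. Of the INK4 inhibitors Cdkn2d was the more abundant, and of the CIP/KIP inhibitors Cdkn1b was higher than Cdkn1c, group by group.

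**Figure D1:**
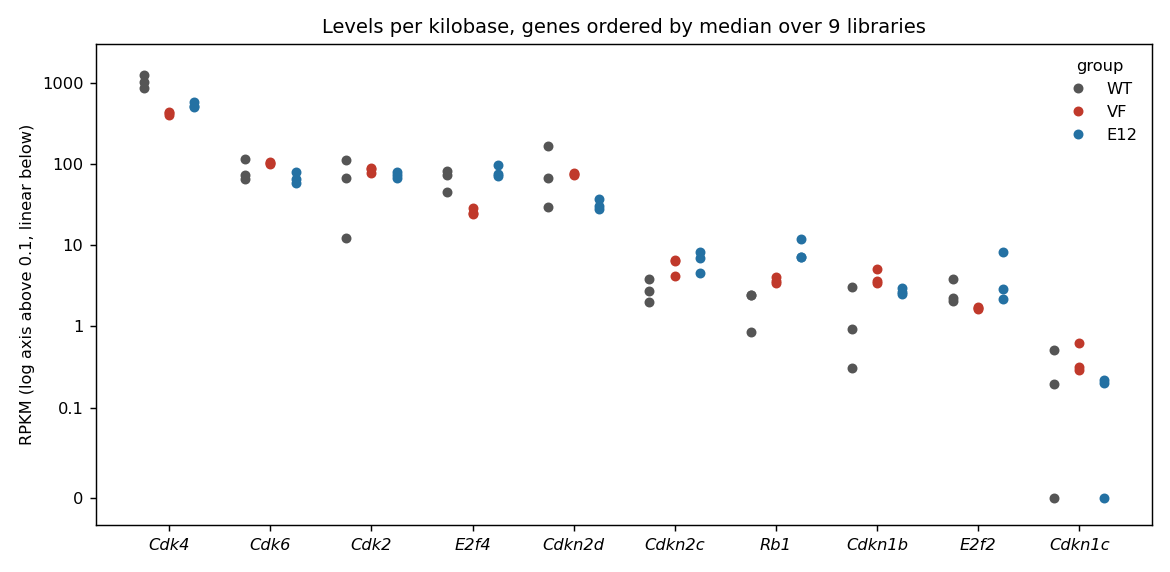
Level of each gene per kilobase in RPKM (vertical axis, logarithmic above 0.1 and linear below), 1 point per library, coloured by group. Cdk4 lies above every other gene, and Cdkn1c is lowest, with no count in WT 50 and E12 1.

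Each difference was tested with edgeR's quasi-likelihood test in 1 fit of all 9 libraries, and p-values were adjusted by Benjamini-Hochberg over 13608 genes, with an adjusted p under 0.05 as the threshold for a call. All 10 genes passed the filter on low counts. Cdkn1c reached its cutoff in 3 VF libraries but in only 1 WT and 1 E12 library. It was thus tested only through VF, the group where its mean was highest. In VF against WT 2 of the 10 genes were called, both lower, against 48.6% of all genes. In E12 against WT 4 were called, 2 higher and 2 lower, against 42% of all genes. In E12 against VF 1 was called, higher in E12, against 3.21% of all genes. These comparisons share samples, since WT serves as the control of the first 2 and each mutant group enters 2 of them. The median log2 fold changes of the 10 genes were 0.35, 0.24 and 0, beside 0.36, 0.36 and -0.05 over all genes. Groups did not overlap for 6, 3 and 8 of the 10 genes, against 62.7%, 53.3% and 59.5% of all genes. The 8 include Cdkn1c, whose place among the tested genes rests on VF.

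**Figure D2:**
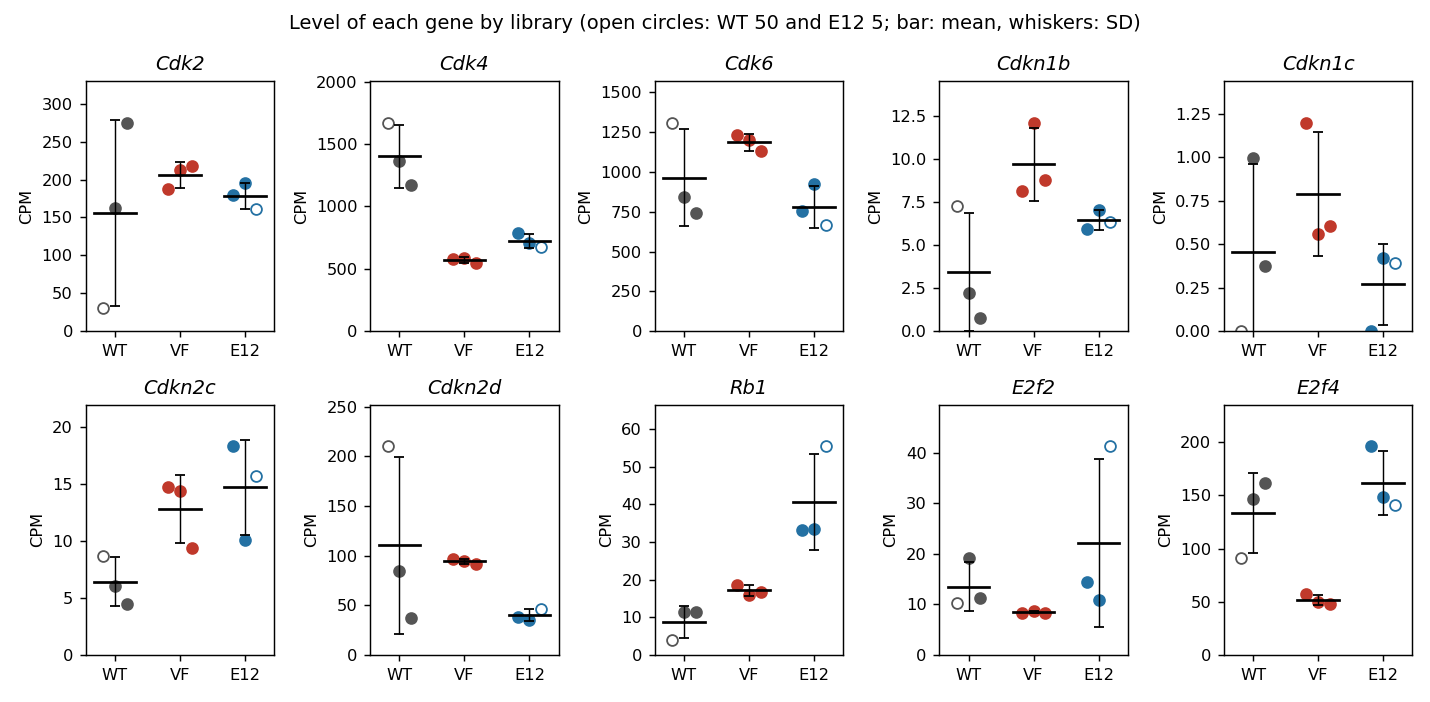
CPM of each gene (vertical axis, linear, from 0) by group, 1 point per library, with the mean as a bar and the SD as whiskers, which stop at the axis where they would pass 0. Open circles are WT 50 and E12 5. E2f4 is at 48 to 57.1 CPM in VF, below all 6 other libraries, and Cdk4 is at 1170 CPM or more in WT, above all 6 mutant libraries.

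E2f4 (Entrez gene 104394, chromosome 8, 105297663 to 105305370, GRCm38) fell in VF. It was at 57.1, 49.8 and 48 CPM in VF 1, VF 2 and VF 3, at 90.7, 147 and 162 CPM in WT 50, WT 51 and WT 52, and at 196, 148 and 141 CPM in E12 1, E12 2 and E12 5. All VF libraries lay below all WT and all E12 libraries, and the WT and E12 libraries overlapped. VF was 2.58-fold lower than WT (edgeR, log2 fold change -1.37 with an SE of 0.27, adjusted p = 0.004). E12 was 3.13-fold higher than VF (log2 fold change 1.65, SE 0.28, adjusted p = 0.019). E12 against WT was at 0.28 (SE 0.27, adjusted p = 0.43) by edgeR, and passed at 0.68 by limma on the deposited levels (adjusted p = 0.027). The difference between VF and WT was called under all 19 alternatives, with log2 fold changes from -1.77 to -1.16, and was -1.71 without WT 50. That between E12 and VF kept its direction, but its call was lost without VF 1, VF 2, VF 3, E12 1, E12 2 or E12 5, with adjusted p from 0.061 to 0.14. In these bulk samples, fewer cells of a type and less RNA per cell cannot be told apart, here as for all genes below.

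Cdk4 (chromosome 10, 127063535 to 127067288), partner of the D-type cyclins, was called lower in both mutants than in WT by edgeR. That direction did not hold on the deposited levels. It was at 579, 586 and 546 CPM in VF 1, VF 2 and VF 3, at 788, 705 and 673 CPM in E12 1, E12 2 and E12 5, and at 1670, 1360 and 1170 CPM in WT 50, WT 51 and WT 52. No mutant library reached the lowest WT library, and every E12 library lay above every VF library. The log2 fold change was -1.29 in VF (SE 0.26, adjusted p = 0.004 by edgeR) and -0.95 in E12 (SE 0.26, adjusted p = 0.017). E12 against VF was at 0.34 (SE 0.26, adjusted p = 0.55). At 1346 bases the authors' Cdk4 model is short, and genes of 1 to 2 kb had a median of -0.79 in VF and -0.80 in E12 against WT. The length offsets gave medians of -0.54 in VF and -0.4 in E12 against WT over all genes. With them the fold changes of Cdk4 were -0.97 (adjusted p = 0.0015 by edgeR) in VF and -0.45 (adjusted p = 0.065) in E12. By limma on the log2 levels from the authors both turned, to 0.18 and 0.33 (adjusted p = 0.56 and 0.30), and the call in E12 was also lost without E12 2 or E12 5 (adjusted p = 0.07 and 0.068) and in a fit of E12 and WT alone (adjusted p = 0.098). With a block on replicate number neither call was kept (adjusted p = 0.064 in VF and 0.14 in E12 by edgeR). Exons of Tspan31, on the other strand, cover 19.7% of the exon bases of Cdk4 in GENCODE. Without strand in the protocol, reads there cannot be assigned to 1 of the 2 genes, and Tspan31 had 5191 to 10732 counts in WT, 3172 to 3382 in VF and 3480 to 4329 in E12.

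Cdk6 (chromosome 5, 3341004 to 3531008), the other partner of the D-type cyclins, was not called in any comparison by edgeR. It was at 1230, 1200 and 1130 CPM in VF 1, VF 2 and VF 3, at 754, 927 and 665 CPM in E12 1, E12 2 and E12 5, and at 1310, 841 and 742 CPM in WT 50, WT 51 and WT 52. WT 50 was the highest of all and the other WT libraries lay among those of E12, while E12 lay wholly below VF (log2 fold change -0.60, SE 0.30, adjusted p = 0.35). VF against WT was at 0.30 (SE 0.30, adjusted p = 0.44) and E12 against WT at -0.30 (SE 0.30, adjusted p = 0.45). At 11522 bases its model is the longest of the 10, and its sign against WT depended on how length and scale were handled. The length offsets gave medians of -0.54 in VF and -0.4 in E12 against WT over all genes. With them the log2 fold changes of Cdk6 were -1.53 in VF (adjusted p = 0.0017 by edgeR) and -1.76 in E12 (adjusted p = 0.002). By limma on the deposited levels they were 1.78 (adjusted p = 0.00031) and 0.95 (adjusted p = 0.01). No direction against WT can be read from values that disagree in this way. E12 was below VF on all 3 scales, at -0.24 with the offsets (adjusted p = 0.65) and -0.83 on the deposited levels (adjusted p = 0.042).

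Cdk2 (chromosome 10, 128697938 to 128705051), the partner of E-type and A-type cyclins, was not called by edgeR in any comparison. It was at 187, 213 and 218 CPM in VF, at 180, 195 and 161 CPM in E12 and at 30.2, 163 and 275 CPM in WT, in the order of the libraries above. WT 50 was the low value and WT 52 the highest of all 9, so that the range of WT enclosed both mutants. The log2 fold changes were 0.40 in VF and 0.20 in E12 against WT, each with an SE of 0.59 (adjusted p = 0.60 and 0.81 by edgeR), and -0.20 in E12 against VF (adjusted p = 0.90). Without WT 50 the first 2 turned to -0.19 and -0.40 (adjusted p = 0.39 and 0.099). With the length offsets they were -0.23 and -0.30 (adjusted p = 0.71 and 0.65 by edgeR), above the medians of -0.54 and -0.4 over all genes. By limma on the deposited levels VF against WT passed at 1.45 (adjusted p = 0.043), and E12 was at 0.95 (adjusted p = 0.17).

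The balance of the paired kinases was also described as the share of Cdk6 in the sum of Cdk4 and Cdk6 per kilobase, with no test. The share was 19.9%, 19.3% and 19.5% in VF 1, VF 2 and VF 3, 10.1%, 13.3% and 10.4% in E12 1, E12 2 and E12 5 and 8.4%, 6.74% and 6.92% in WT 50, WT 51 and WT 52. The 3 groups did not overlap, with VF highest and WT lowest. After the length offsets the means were 12.5% ± 0.771 in VF, 7.76% ± 0.568 in E12 and 17.7% ± 8.25 in WT. VF stayed above E12 in every library, but WT moved from the lowest to the highest mean, with 26.9% in WT 50.

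**Figure D3:**
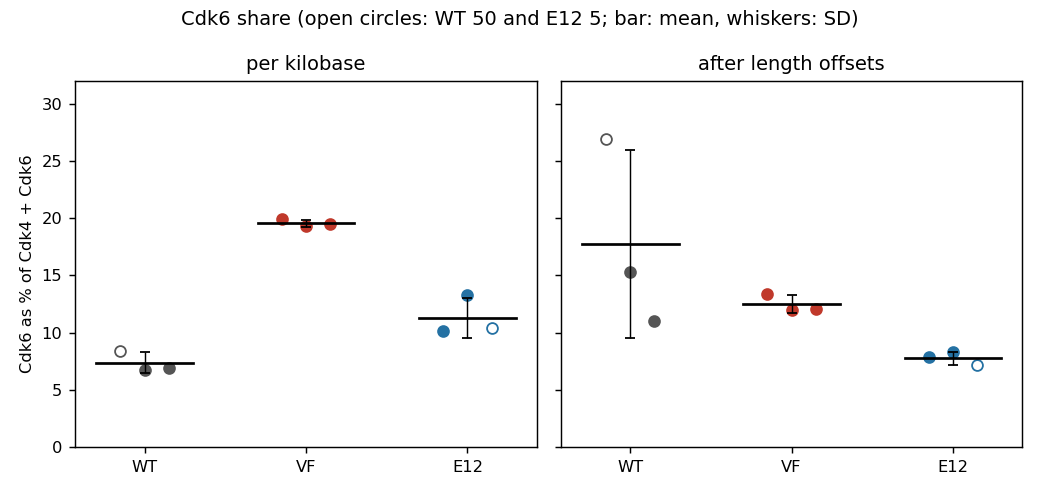
Cdk6 as a percentage of Cdk4 plus Cdk6 per kilobase (vertical axis) by group, before (left) and after (right) the length offsets, 1 point per library with the mean as a bar and the SD as whiskers; open circles are WT 50 and E12 5. VF lies above E12 in both panels, while the place of WT changes between them.

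Of the INK4 inhibitors, Cdkn2d (p19, chromosome 9, 21288459 to 21291421) was lowest on average in E12. It was at 38.4, 35.1 and 46.4 CPM in E12 1, E12 2 and E12 5, at 96.9, 94.2 and 91.7 CPM in VF 1, VF 2 and VF 3 and at 210, 84.5 and 37.5 CPM in WT 50, WT 51 and WT 52. E12 lay below all VF libraries, but WT 52 lay within E12 and WT spanned more than 5-fold. E12 against WT passed at -1.47 on the log2 scale (SE 0.51, adjusted p = 0.045 by edgeR), although the groups overlapped. That call held in 7 of 19 alternatives. It was lost without WT 50 (-0.78, adjusted p = 0.078), without VF 1, VF 2 or VF 3 (adjusted p = 0.07 each), without E12 1, E12 2 or E12 5 (adjusted p = 0.12, 0.13 and 0.09) and with the length offsets (-0.62, adjusted p = 0.12). The median over all genes in E12 against WT was -0.4 with these offsets. E12 against VF was at -1.24 (SE 0.51, adjusted p = 0.24), and VF against WT was at -0.23 (SE 0.50, adjusted p = 0.73). In a fit of E12 and VF alone, which leaves out the wide spread of WT, the difference passed at -1.2 (adjusted p = 0.00016).

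Cdkn2c (p18, chromosome 4, 109660876 to 109666756) went the other way in E12. It was at 18.3, 10.1 and 15.7 CPM in E12 1, E12 2 and E12 5, at 14.7, 14.4 and 9.41 CPM in VF 1, VF 2 and VF 3 and at 8.72, 6.07 and 4.49 CPM in WT 50, WT 51 and WT 52. Both mutant groups lay wholly above WT and overlapped each other. It rose in E12, where the log2 fold change was 1.2 (SE 0.40, adjusted p = 0.039 by edgeR), while VF was at 1 (SE 0.40, adjusted p = 0.064) and E12 against VF at 0.20 (SE 0.39, adjusted p = 0.84). The call in E12 held in 4 of 19 alternatives. It was lost without VF 1, VF 2, VF 3, E12 1, E12 5, WT 51 or WT 52 (adjusted p from 0.055 to 0.16), with RLE or upper-quartile factors, and with the length offsets (0.50, adjusted p = 0.44). These offsets gave a median of -0.4 over all genes in E12 against WT. Cdkn2d made up 95.8% ± 2.03 of the 2 INK4 genes per kilobase in WT, 92.9% ± 1.41 in VF and 82.9% ± 3.74 in E12. The share was 78.8%, 86% and 84% in E12 1, E12 2 and E12 5, below the lowest of the other libraries, 92.1% in VF. After the length offsets E12 was still lowest, at 86.6% ± 3.33 against 94.3% ± 1.24 in VF and 93.6% ± 1.39 in WT.

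Of the CIP/KIP inhibitors, Cdkn1b (p27, chromosome 6, 134920401 to 134925525) was highest in VF and was not called. It was at 8.14, 12.1 and 8.8 CPM in VF 1, VF 2 and VF 3, at 5.93, 7.05 and 6.34 CPM in E12 1, E12 2 and E12 5 and at 7.29, 2.24 and 0.748 CPM in WT 50, WT 51 and WT 52. All VF libraries lay above all others, and WT 50 lay above every E12 library. The log2 fold changes were 1.5 in VF (SE 0.71, adjusted p = 0.11 by edgeR) and 0.92 in E12 (SE 0.70, adjusted p = 0.32) against WT. Without WT 50 both passed, at 2.51 (adjusted p = 0.0038) and 1.93 (adjusted p = 0.014). Neither passed with the length offsets, at 0.40 and -0.06 (adjusted p = 0.71 and 0.96 by edgeR), beside medians of -0.54 and -0.4 over all genes. E12 against VF was at -0.59 (SE 0.69, adjusted p = 0.73).

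Cdkn1c (p57, chromosome 7, 143458339 to 143461059), known in blood for holding stem cells at rest, was close to the limit of detection. Its raw counts were 32, 15 and 15 in VF 1, VF 2 and VF 3, 0, 11 and 9 in E12 1, E12 2 and E12 5, and 0, 32 and 11 in WT 50, WT 51 and WT 52. All E12 libraries lay below all VF libraries, at very low counts, and WT overlapped both. That separation is no support for a difference, since the gene passed the filter on low counts only through VF. The SE of its log2 fold changes, from 1.39 to 1.43, was the largest of the 10 genes. Against WT the values were 0.76 in VF and -0.78 in E12, and E12 against VF was at -1.53 (adjusted p = 0.68, 0.69 and 0.64 by edgeR).

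Rb1 (chromosome 14, 73192858 to 73325951), the pocket protein gene, rose in E12. It was at 33.2, 33.4 and 55.4 CPM in E12 1, E12 2 and E12 5, at 18.7, 16 and 16.8 CPM in VF 1, VF 2 and VF 3 and at 3.92, 11.3 and 11.3 CPM in WT 50, WT 51 and WT 52. The 3 groups did not overlap, with E12 highest and WT lowest. E12 was 4.58-fold above WT (edgeR, log2 fold change 2.19 with an SE of 0.43, adjusted p = 0.0056), and at 1.72 without WT 50 (adjusted p = 0.0012). VF was at 0.95 against WT (SE 0.42, adjusted p = 0.088), and E12 at 1.24 against VF (SE 0.42, adjusted p = 0.16). With the length offsets E12 against WT was 0.84 (adjusted p = 0.09), VF against WT turned to -0.60 (adjusted p = 0.19), and E12 against VF passed at 1.43 (adjusted p = 0.035). The medians over all genes with the offsets were -0.4, -0.54 and 0.13 in the same order. E12 against VF also passed by DESeq2 (1.2, adjusted p = 0.03), by limma on the deposited levels (1.45, adjusted p = 0.044) and without WT 50 (1.25, adjusted p = 0.0082). Exons of Lpar6 and Rcbtb2, on the other strand, cover 6.78% and 8.11% of the exon bases of Rb1. Lpar6 had 101 to 391 counts in WT, 334 to 494 in E12 and 1047 to 1169 in VF. Rcbtb2 had 381 to 1717, 797 to 883 and 1723 to 2048, so neither was highest in E12.

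E2f2 (Entrez gene 242705, chromosome 4, 136172274 to 136196057), the activator of the pair, was not called. It was at 8.33, 8.65 and 8.35 CPM in VF 1, VF 2 and VF 3, at 14.5, 10.9 and 41.3 CPM in E12 1, E12 2 and E12 5 and at 10.2, 19.1 and 11.2 CPM in WT 50, WT 51 and WT 52. All VF libraries lay below all others, and E12 5 stood far above the rest. E12 5 also had the largest sum of erythroid markers in its group, 23100 CPM against 12000 and 8550 in E12 1 and E12 2. The part of these markers in the E2f2 value was not tested. E12 against VF was at 1.40 (SE 0.52, adjusted p = 0.19 by edgeR) and at 0.59 without E12 5 (adjusted p = 0.61). VF against WT was at -0.68 (SE 0.51, adjusted p = 0.30), -2.34 with the length offsets (adjusted p = 0.0045) and -1.63 by limma on the deposited levels (adjusted p = 0.023). With the offsets the medians over all genes were -0.54 in VF and -0.4 in E12 against WT. E12 against WT was at 0.72 (SE 0.51, adjusted p = 0.28), and turned to -0.74 with the offsets (adjusted p = 0.27) and to -0.08 without E12 5 (adjusted p = 0.90).

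**Figure D4:**
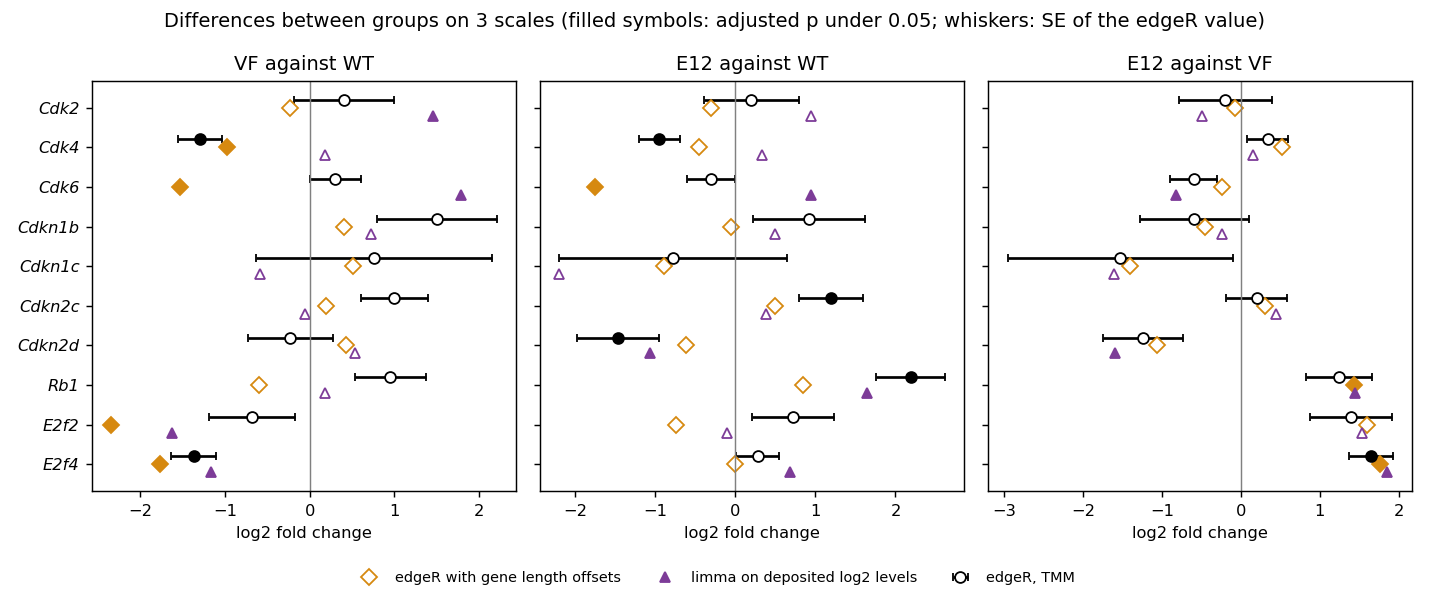
Log2 fold change of each gene (horizontal axis) in the 3 comparisons, by edgeR with its SE (circles), by edgeR with the gene length offsets (diamonds) and by limma on the deposited log2 levels (triangles); filled symbols have an adjusted p under 0.05. E2f4 is filled on all 3 scales in VF against WT and in E12 against VF, whereas Cdk6 against WT lies on both sides of 0.

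The fit of all 9 libraries lets WT, whose libraries differed most among themselves, set part of the error for E12 against VF. With only those 2 groups in the fit, 6 of the 10 genes were called, against 48% of 13356 genes tested. They were E2f4, Rb1, E2f2 and Cdk4, higher in E12 at 1.68, 1.28, 1.44 and 0.37 (adjusted p = 4.7e-05, 0.002, 0.032 and 0.0062 by edgeR), and Cdkn2d and Cdk6, lower at -1.2 and -0.57 (adjusted p = 0.00016 and 0.0064). The other 4 had adjusted p from 0.078 for Cdkn1b to 0.49 for Cdkn2c. Counts of called genes among the 10 moved with the setting, and so did the background. For VF against WT they were 2 in the fit of 2 groups (37.4% of all genes), 4 with the length offsets (51.5%), 4 on the deposited levels (49.8%), 2 by DESeq2 (56.2%), 4 without WT 50 (59.9%) and 6 without WT 50 and E12 5 (59.7%). For E12 against WT, in the same order, they were 1 (23.2%), 1 (38.4%), 4 (41.6%), 3 (51%), 4 (52.5%) and 4 (48.2%). For E12 against VF the settings after the fit of 2 groups gave 2 (10.4%), 4 (13.1%), 2 (12.5%), 4 (23.5%) and 3 (18.4%). Several of these shares lay near the background, and with 10 genes no pattern can be read from them. In E12 against VF 0 of the 10 were called with a block on replicate number, where 22 of all genes passed. The same held without any 1 VF or E12 library, where 19 to 114 of all genes passed.

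The genes around these 10 were read from 4 lists. Among 16 tested genes of the kinases' partners and regulators, 6 fell and 1 rose in VF against WT, beside 20.9% lower and 27.7% higher among all genes, with a median log2 fold change of -0.63. In E12 against WT 4 fell and 1 rose (18.1% lower and 23.9% higher among all genes, list median -0.03), and in E12 against VF 1 rose and 0 fell (2.19% and 1.02%, list median 0.29). With the length offsets 10 were lower and 0 higher in VF (51.5% of all genes called, list median -1.44 beside -0.54), and 8 lower and 1 higher in E12 (38.4%, -0.74 beside -0.4). On the deposited levels 6 were lower and 2 higher in VF (49.8% called), and 4 lower and 4 higher in E12 (41.6%). Cdkn2a and Cdkn2b, the other INK4 genes, did not pass the filter on low counts. Cdk7, the kinase that activates the other cyclin-dependent kinases, was at 72.8 ± 1.87 CPM in VF, 106 ± 10 in E12 and 280 ± 64.9 in WT (adjusted p = 0.00058 for VF and 0.0035 for E12 by edgeR). Cyclin H, its partner Ccnh, fell in VF at -0.99 (adjusted p = 0.0086), and so did Cdc37, the chaperone partner that loads kinases such as Cdk4 onto Hsp90, at -1.22 (adjusted p = 0.0033). Cdc37 was called lower in E12 against WT too, at -0.93 (adjusted p = 0.012 by edgeR), and Ccnh was not (-0.46, adjusted p = 0.15). Ccne1, the E-type cyclin that activates Cdk2, was at 274 ± 30.9 CPM in E12 and 32 ± 5.55 in VF (adjusted p = 0.011, at 3.10 on the log2 scale with an SE of 0.43). It was the one called gene of the list in that comparison, and against WT it fell in VF (-1.56, adjusted p = 0.013) and rose in E12 (1.54, adjusted p = 0.015).

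The 17 genes of pocket proteins, other E2Fs and the DREAM complex, which pairs E2f4 with p107 or p130 to repress cell cycle genes, were mixed. In VF against WT 6 rose and 2 fell (27.7% and 20.9% of all genes, list median 0.42), in E12 against WT 7 rose and 2 fell (23.9% and 18.1%, list median 0.73), and in E12 against VF 0 passed by edgeR (median 0.18). In that last comparison 3 had an unadjusted p under 0.05 by edgeR, 1 passed on the deposited levels by limma, and the smallest adjusted p by edgeR was 0.16, for Mybl2. Rbl2, which encodes p130, was at 77.1 ± 7.07 CPM in VF, 59 ± 2.44 in E12 and 14.1 ± 6.72 in WT (adjusted p = 0.0011 and 0.0038 by edgeR). Rbl1, which encodes p107, was at 83 ± 6.37 CPM in VF and 74.9 ± 10.4 in E12 against 20.7 ± 15.5 in WT (adjusted p = 0.0079 and 0.013 by edgeR). The DREAM subunit genes split in both mutants against WT. Lin54 was higher, at 3.32 in VF (adjusted p = 0.00015) and 3.94 in E12 (adjusted p = 0.00035 by edgeR). Lin37 was lower, at -2.37 in VF (adjusted p = 0.0086) and -2.76 in E12 (adjusted p = 0.0068 by edgeR). With the length offsets 2 genes of the list were higher and 8 lower in VF against WT, with a median of -1.11 beside -0.54 over all genes, and in E12 against WT 1 was higher and 5 lower (median 0.01 beside -0.4). These offsets moved the median of all genes and the split of all calls as well.

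The 25 E2F target genes, which serve DNA copying and nucleotide supply, fell in VF where they were called by edgeR. In VF against WT 11 fell and 0 rose (20.9% and 27.7% of all genes, list median -0.83), and in E12 against WT 7 fell and 2 rose (18.1% and 23.9%, list median -0.01), beside medians of 0.36 over all genes. Pcna, the sliding clamp of DNA polymerase, was at 180 ± 7.61 CPM in VF, 245 ± 25 in E12 and 844 ± 339 in WT (adjusted p = 0.00098 and 0.0039 by edgeR). The single-strand binding subunit Rpa2 was at 214 ± 13.1 CPM in VF, 280 ± 20.1 in E12 and 912 ± 105 in WT. With the length offsets 22 were lower in VF (51.5% of all genes called in either direction, list median -1.73 beside -0.54 over all genes) and 13 in E12 (38.4%, -0.86 beside -0.4), with 0 higher in each. On the deposited levels 4 were higher and 8 lower in VF (49.8% called), and 9 higher and 5 lower in E12 (41.6%). In E12 against VF all 25 values were above 0 (median 0.60, against -0.05 and 47.3% of values above 0 over all genes), and 1 passed, the A-type cyclin Ccna2 (478 ± 94.7 against 190 ± 7.6 CPM, a difference of 1.33 on the log2 scale, SE 0.28, adjusted p = 0.042). The 25 values were above 0 also with the offsets, on the deposited levels, in the fit of the 2 groups and without WT 50 and E12 5, where 8, 5, 24 and 13 passed, against 10.4%, 13.1%, 48% and 18.4% of all genes.

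The 14 genes of proliferation and mitosis had medians close to those of the E2F targets. In VF against WT 7 fell and 2 rose (20.9% and 27.7% of all genes, list median -0.82), in E12 against WT 3 fell and 3 rose (18.1% and 23.9%, list median 0), and in E12 against VF all 14 were above 0 (median 0.66) with 0 called by edgeR and 7 at an unadjusted p under 0.05. With the fit of the 2 groups 14 passed in that comparison (48% of all genes), with the offsets 7 (10.4%), and on the deposited levels 2 by limma (13.1%, close to the share of the list). Against WT, the offsets gave 13 lower and 0 higher in VF (51.5% called) and 7 lower and 0 higher in E12 (38.4%), and the deposited levels 3 lower and 4 higher in VF (49.8%) and 1 lower and 6 higher in E12 (41.6%). In E12 against VF the smallest adjusted p by edgeR was 0.053, for the checkpoint kinase Bub1 (94.3 ± 6.36 CPM in E12 against 52.2 ± 4.24 in VF). Mki67, the common marker of cycling cells, was at 436 ± 26.8 CPM in E12 and 256 ± 12.9 in VF (log2 fold change 0.77, adjusted p = 0.15). The counts of these 4 lists under other settings were added after the data were seen.

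**Figure D5:**
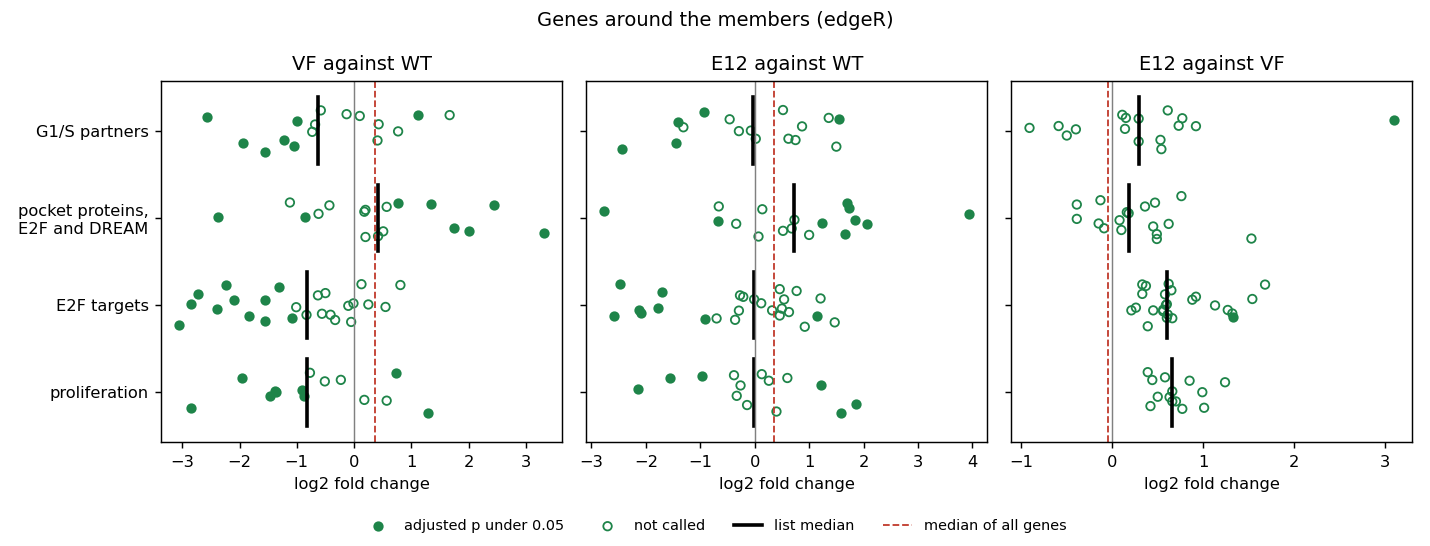
Log2 fold change by edgeR (horizontal axis) of each tested gene of the 4 lists (rows) in the 3 comparisons; filled points have an adjusted p under 0.05, the black bar is the list median and the dashed line the median of all genes. In E12 against VF all 25 E2F targets and all 14 proliferation genes lie right of 0.

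The genes most like some of the 10 in level over the 9 libraries are given by Pearson's r of log2 CPM, as a description over libraries that share group, depth and length trend. The 2 genes most like E2f4 were Ppm1g and Sf3b4 (0.991 and 0.986), those most like Rb1 were Arel1 and Ncapg2 (0.980 and 0.979), and those most like Cdk6 were S1pr1 and Arpc1b (0.987 and 0.984). E2f2 was most like Alas2 and Slc4a1 (0.914 and 0.906), the first an erythroid heme synthesis enzyme and the second the anion exchanger of red cells. Among the 10 genes themselves, the lowest r was that of Cdk6 with E2f4 (-0.82).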

How the data were processed

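Smart-Seq2 libraries (no molecular identifiers, no strand) were made from total RNA of sorted MEP, per the labels' protocols. The authors deposited whole-number read counts for 17769 genes with gene lengths, and log2 expression levels whose normalization is not given in the sources used here, nor is the counting tool. STAR, limma, GRCm38 and mm10 are named, without roles, in the submitters' processing notes.

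Counts were tested with edgeR 4.0.16 in R 4.3.3 (filterByExpr, TMM factors, all 9 libraries, group as the only term). CPM and RPKM used the TMM factors. Each SE of an edgeR log2 fold change, in the text and the figure, was derived from the test. It is the absolute fold change divided by the square root of the F statistic. Alternatives were RLE and upper-quartile factors, no filter, DESeq2 1.42.0, limma 3.58.1 (voom, and on the deposited levels), fits of 2 groups, a replicate block, length offsets (loess, span 0.5), and leaving out WT 50 with E12 5 or each library in turn. Simulated counts for 13311 to 13329 genes held 100 changed genes at a time. On them the edgeR test found 61% of 8-fold and 0% of 2-fold changes in VF against WT, 63% and 2% in E12 against WT, and 62% and 1% in E12 against VF, with 0 false calls in each. In the data 48.6%, 42% and 3.21% of genes were called, which changes the adjustment of p. The simulated shares therefore need not hold for these comparisons. Summed over a group, Cdkn1c had 20 to 62 counts and Cdk4 44622 to 108209. Intervals were not computed for single libraries, since no share of a single library's counts was tested.

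The 10 genes and the lists were chosen with earlier results of these data known. All 10 are named. Each tested list gene named was among the 4 of its list with the smallest p in a comparison, but not all such genes are named. All 8 marker lists are given with the results. Gene positions and promoters came from RefSeq (GRCm38.p6) and exon overlaps from GENCODE. The likeness result for Cdk4 is not reported here.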

Additional observations from a re-analysis of the deposited data

How the results depend on the processing

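Of 570 recomputed log2 fold changes of single genes, 467 kept their direction and side of the threshold, 42 lost and 31 gained a call, and 30 changed sign. Causes were not tested. The count of all genes called was 6612 in VF against WT, 5717 in E12 against WT and 437 in E12 against VF, of which 57%, 56.9% and 68.2% were higher. For E12 against VF it was 1695 by DESeq2 (50.7% higher), 924 by limma-voom (44.5%), 1784 on the deposited levels (54.5%), 6412 in the fit of 2 groups (52.8%), 1420 with length offsets (79.4%) and 2553 without WT 50 and E12 5. The fit of 2 groups gave 2967 for E12 against WT. With length offsets 28.2% of calls in VF and 28% in E12 against WT were higher, and the median of all genes moved to -0.54 and -0.4. Leaving out 1 library gave 4753 to 8382 genes in VF against WT, 3612 to 7339 in E12 against WT and 19 to 3290 in E12 against VF, and 2 to 4, 1 to 4 and 0 to 4 of the 10 genes. Of the 10 genes, 2 were called in VF against WT, but 4 by limma-voom, on the deposited levels and with length offsets, and 6 without WT 50 and E12 5. In E12 against WT 4 were called, but 1 in the fit of 2 groups and 1 with length offsets. In E12 against VF 1 was called, but 2 by DESeq2 and with length offsets, 4 on the deposited levels, 6 in the fit of 2 groups and 3 without WT 50 and E12 5.

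The replicate block joined VF and E12 libraries with the same number. Same-numbered libraries deviated together with r = 0.01 and 0.1, and other pairs with -0.2 to 0.23. The labels do not say whether equal numbers mark a pairing, and values from so few libraries cannot decide it. With the block 2449, 622 and 22 genes were called, of which 93.9% and 95.5% were higher in the last 2 comparisons. Of the 10 genes 1, 0 and 0 were called, and E2f2 in VF against WT turned to 0.01.

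Signs also changed as follows. By limma-voom Cdkn2d in VF against WT was 0.09. On the deposited levels VF against WT was 0.18 for Cdk4, -0.59 for Cdkn1c, -0.06 for Cdkn2c and 0.53 for Cdkn2d, and E12 against WT was 0.33 for Cdk4, 0.95 for Cdk6 and -0.1 for E2f2. With length offsets VF against WT was -0.23 for Cdk2, -1.53 for Cdk6, 0.43 for Cdkn2d and -0.6 for Rb1, and E12 against WT was -0.3 for Cdk2, -0.06 for Cdkn1b, -0.74 for E2f2 and -0.01 for E2f4. Without WT 50 and E12 5, VF against WT was -0.16 for Cdk2 and 0.5 for Cdkn2d, and E12 against WT was -0.25 for Cdk2, 0.04 for Cdk6 and -0.33 for E2f2. Without WT 50, VF against WT was -0.19 for Cdk2 and 0.46 for Cdkn2d, and E12 against WT was -0.4 for Cdk2 and -0.06 for E2f4. Without WT 51 Cdk6 in VF was -0.02 and Cdkn1c in E12 0.39, without WT 52 Cdk6 in VF was -0.15, and without E12 5 E2f2 in E12 was -0.08, all against WT. The other ends of these leave-one-out ranges were 0.85 for Cdk2 and -0.94 for Cdkn2d in VF and 0.64 for Cdk2 in E12 (without WT 52), 0.45 for Cdk6 in VF and -1.49 for Cdkn1c in E12 (without WT 50), and 1.05 for E2f2 and 0.38 for E2f4 in E12 (without E12 2 and E12 5).

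For WT, VF and E12 in that order, the Cdk6 share was 17.7%, 12.5% and 7.76% with length offsets and 40.4%, 67.6% and 51.8% of read counts. The Cdkn2d share was 93.6% in WT and 94.3% in VF with offsets, and 92.9%, 88.1% and 73.3% of read counts. The E2f2 share of E2f2 and E2f4 was 3.97%, 6.15% and 5.4% per kilobase, 6.73% in WT and 4.59% in VF with offsets, and 9.37%, 14.1% and 12.1% of read counts. Leaving out 1 library gave Cdk6 shares of 6.83% to 7.66%, 19.4% to 19.7% and 10.2% to 11.8%, Cdkn2d shares of 94.9% to 96.9%, 92.1% to 93.3% and 81.4% to 85%, and E2f2 shares of 3.49% to 4.61%, 5.98% to 6.48% and 2.86% to 6.67%. Cdkn1c shares of Cdkn1b and Cdkn1c ran from 17.8% to 36.9%, 6.65% to 11.7% and 3.43% to 6.98% in the same way. Depth limited Cdkn1c most, with no count in 2 libraries. The correlations and the length offsets used log2 CPM with a pseudocount of 2, and other pseudocounts were not tried.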
